A study of Mus musculus with 52 samples.

Results

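The super-enhancer block of mouse embryonic stem cells (mESCs) comprises the 231 regions that open the deposited mESC enhancer table, which holds 8794 regions in all. These regions were taken by their place in the table: they run through the chromosomes in order, and at the row after them (232) the order starts again for the remaining 8563 regions. The deposited table itself does not name them. Their number is that of the super-enhancers reported by the publication from which the authors took the mESC set, and no region of the block overlapped another of the block or any of the remaining 8563. Of the study's 52 chromatin immunoprecipitation and input libraries, 43 came from naive mESCs kept without feeders in LIF with GSK3 and MEK1 inhibitors, and 9 from epiblast-like cells (EpiLCs) taken 48 hours into differentiation. The genotypes were clones with arginine for lysine 27 in canonical H3 only (cK27R) or in all H3 (pK27R, labelled in the H3.3 libraries as a knockout given back K27R mutant H3.3), SUZ12KO cells, H3-3KO cells, the same knockout given back wild-type H3.3 (pK27WT) and control cells (ABE), all on a C57BL6/129Sv background. Since 0 columns of the deposited tables give a measurement of a library, signal in any genotype was not analysed here. Below, the block is set against the remaining mESC enhancers and against the 16576 EpiLC enhancers of the deposited EpiLC table. Both tables are complete lists with no replicates, so differences are given as measured and carry no test.

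Super-enhancers are long stretches of regulatory DNA in which several enhancers lie close together and carry unusually high levels of master transcription factors and Mediator. In mESCs those factors include OCT4 (encoded by Pou5f1), SOX2 and NANOG, and the stretches tend to lie beside genes that define cell identity. On the way from naive mESCs to EpiLCs, a state like the early post-implantation epiblast, naive factors are silenced, OCT4 is kept, and factors such as OTX2 take part in a rearranged enhancer set. The EpiLC table was defined by peaks of H3K27ac, H3K4me1 and p300 in an earlier publication of another group, so differences in definition and in cell state cannot be told apart.

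OCT4 and SOX2 bind as a pair to a composite element, and the sequences below show its core, GCATNACAA, in capitals within regions of the block whose genes recur in the results. Each is the match nearest the centre of its region with 45 bases on either side, read from the RefSeq GRCm38.p6 genome (the mm10 build) on the strand that carries the core, and none overlaps an annotated exon. In the next 6 the core lies inside an EpiLC enhancer. The Nanog stretch ends just before the transcription start site (TSS) of Nanog.
Nanog (chr6:122707372-122707470, plus strand): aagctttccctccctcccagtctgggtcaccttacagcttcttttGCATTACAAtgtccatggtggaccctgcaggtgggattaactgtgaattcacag
Pou5f1 (chr17:35504008-35504106, plus strand): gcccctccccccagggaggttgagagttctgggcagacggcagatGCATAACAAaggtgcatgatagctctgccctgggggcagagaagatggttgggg
Utf1 (chr7:139945640-139945738, plus strand): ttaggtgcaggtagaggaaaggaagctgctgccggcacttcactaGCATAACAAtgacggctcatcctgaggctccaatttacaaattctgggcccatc
Sox2 (chr3:34654006-34654104, minus strand): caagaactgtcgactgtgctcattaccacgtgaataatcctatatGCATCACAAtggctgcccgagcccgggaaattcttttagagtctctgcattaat
Mir290a (chr7:3213669-3213767, minus strand): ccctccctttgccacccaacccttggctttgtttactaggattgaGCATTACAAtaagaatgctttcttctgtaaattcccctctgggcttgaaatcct
Prdm14 (chr1:13094739-13094837, minus strand): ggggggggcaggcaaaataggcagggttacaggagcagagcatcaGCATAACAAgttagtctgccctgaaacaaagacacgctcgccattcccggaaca

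In the next 3 regions, by contrast, the core lies outside every EpiLC enhancer.
Gm12505, beside Klf4 (chr4:55466610-55466708, minus strand): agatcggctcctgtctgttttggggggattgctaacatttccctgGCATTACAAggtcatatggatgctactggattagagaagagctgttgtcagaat
Gm38509, downstream of Sox2 (chr3:34746371-34746469, minus strand): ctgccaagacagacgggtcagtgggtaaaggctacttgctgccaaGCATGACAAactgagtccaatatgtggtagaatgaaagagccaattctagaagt
Cobl (chr11:12462246-12462344, plus strand): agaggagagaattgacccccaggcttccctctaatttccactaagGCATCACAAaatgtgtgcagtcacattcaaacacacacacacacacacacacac

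Most of the block was wide, but not all of it. Its regions had a median width of 8667 bp (quartiles 3389 and 15134 bp), against 703 bp (quartiles 568 and 894 bp) in the remaining mESC enhancers. They spanned 553 to 50163 bp, and the remaining enhancers reached 35621 bp. Wider than 10 kb were 108 regions of the block (46.8%) and 295 of the remaining enhancers (3.45%). At the narrow end, 17 regions of the block (7.36%) were under 1 kb, among them one beside Lefty2, a secreted antagonist of Nodal (870 bp), and one beside Ier2, an immediate early gene (571 bp). The block made up 2.63% of the mESC enhancers and 15.4% of their summed length (2.41 Mb, against 13.2 Mb in the remaining enhancers). Width alone would therefore not have separated the block from the rest.

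**Figure D1:**
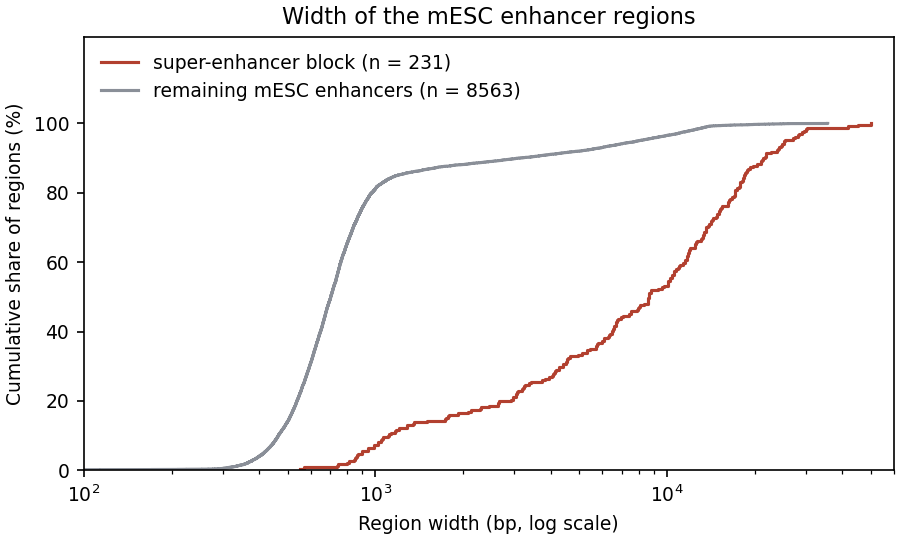
Cumulative share of regions (y axis, percent) by region width (x axis, bp, log scale) for the super-enhancer block and the remaining mESC enhancers. The medians are 8667 bp and 703 bp, and the curves share the range from 553 to 35621 bp.

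Nearly every region of the block contained an EpiLC enhancer. At a minimum overlap of 1 bp, 223 of 231 regions (96.5%) held at least 1 EpiLC enhancer, against 3550 of the remaining 8563 (41.5%) and 42.9% of the whole mESC table. Since wide regions are hit more easily, the same share was taken in remaining enhancers at least as wide as the lower quartile of the block, and was 69.9% (580 of 830). Next, at least 50% of the EpiLC enhancer had to lie inside the region. The shares were then 68.0% in the block, 62.4% in the wide remaining enhancers and 15.7% in all remaining ones. The block kept its narrow regions in both comparisons with the wide ones, so these shares are not matched for width. A long EpiLC enhancer cannot lie by 50% inside a narrow region. At 1 bp, the share was higher in the block than in the remaining enhancers in each of 6 width classes. Between 2 and 5 kb it was 100% of 39 regions against 65.7% of 329, between 10 and 20 kb 97.5% of 80 against 72.3% of 271, and under 1 kb 82.4% of 17 against 34.9% of 6949. In the central 2 kb alone, which gives all wider regions the same target, the shares were 73.2% in the block, 37.3% in the remaining enhancers and 26.7% in the wide ones among these.

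Many regions of the block held several EpiLC enhancers, and the EpiLC enhancers that touched the block were, by median, longer than the others. At least 2 were found in 45.5% of the block, against 3.69% of the remaining enhancers, 28.8% of the wide ones among these and 4.79% of the whole mESC table. Such counts grow with width. Per 10 kb of summed length there were 1.56 EpiLC enhancers in the block, fewer than the 2.95 in the remaining enhancers and more than the 1.16 in the wide ones. Exactly 1 EpiLC enhancer was found in 118 regions, 2 in 69, 3 in 29, 4 in 3 and 5 in 4. The 4 regions with 5 lay at Sall4, Ddit4, Lncenc1 and Myo10. In total 375 EpiLC enhancers touched the block, 2.26% of the EpiLC table. Their median width was 4775 bp, against 2175 bp for the 3912 that touched remaining mESC enhancers and 1625 bp for the 12290 that touched neither. Longer than 5 kb were 47.7%, 15.2% and 5.58% of these groups in the same order. A long EpiLC enhancer meets a region more easily at 1 bp, and the part of this in the widths was not tested. Only 86 of the 375 (22.9%) lay wholly inside their region of the block, so most extended past its edge. Centres within 1 kb of a TSS made up 18.1% of the 375, 14.0% of those in remaining enhancers and 29.7% of those in neither.

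**Figure D2:**
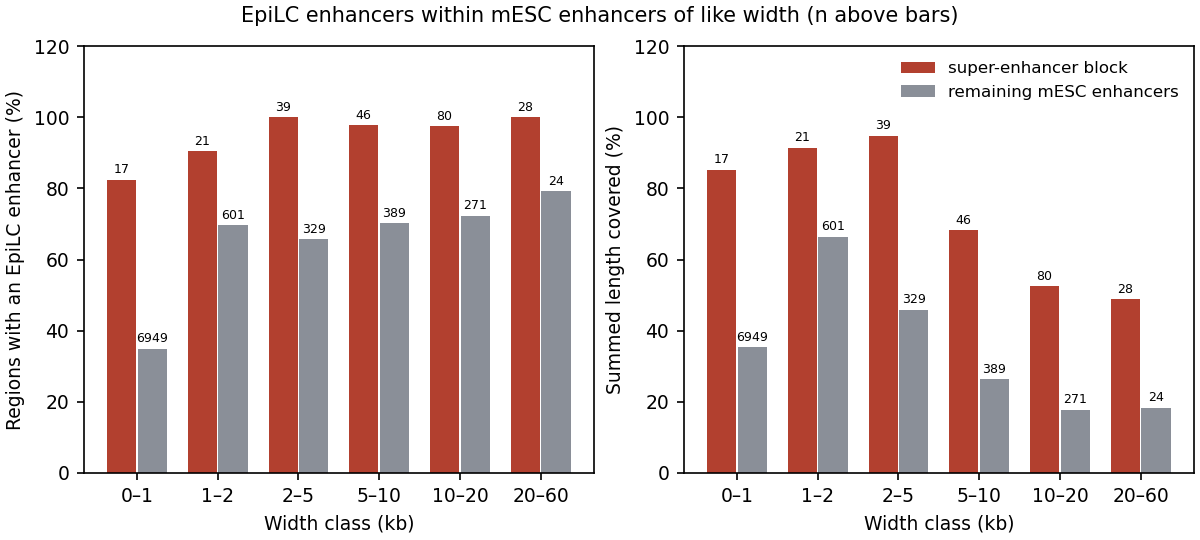
Share of regions with at least 1 EpiLC enhancer (left, percent) and share of summed length covered by EpiLC enhancers (right, percent) by width class in kb, with the number of regions above each bar. Bars of the super-enhancer block stand above those of the remaining mESC enhancers in all 6 classes, for example at 52.5% and 17.7% of the length between 10 and 20 kb.

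More than 50% of the block by length lay in EpiLC enhancers. These covered 56.5% of the block's summed length (1363 kb), against 30.7% of that of the remaining enhancers and 22.7% of that of the wide ones among these. The median region of the block was covered over 77.0% of its length (quartiles 45.3% and 100%), and the median wide remaining enhancer over 17.1% (quartiles 0% and 37.1%). With each EpiLC enhancer trimmed to its central 1 kb these medians were 11.8% and 8.77%, a much smaller gap. Covered in full were 80 regions of the block (34.6%), each by a single EpiLC enhancer, with a median width of 2955 bp. Full coverage was found in 28.9% of all mESC enhancers and 28.8% of the remaining ones, near the share in the block, and in 5.66% of the wide remaining ones. Above 5 kb, 20 regions of the block (13.0%) and 19 of the remaining enhancers (2.78%) were covered in full. The regions of the block not covered in full had a median width of 12579 bp. Above 2 kb, wider classes of the block were covered less: 94.8% of the summed length between 2 and 5 kb, 68.2% between 5 and 10 kb, 52.5% between 10 and 20 kb and 48.8% above 20 kb. In the remaining enhancers these classes had 45.9%, 26.3%, 17.7% and 18.3%. Of regions wider than 5 kb, 16 of the block (10.4%) and 393 of the remaining (57.5%) were covered over less than 20% of their length.

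Coverage by EpiLC enhancers was higher at the edges of a region than in its middle, in the block and in the remaining enhancers alike. A region that joins several enhancers begins and ends in one, and the part of this in the profile was not tested. Among the 193 regions of the block of 2 kb or more, the outermost twentieths of the length were covered to 70.6% and 74.6%, and the lowest value inside was 47.2%. The 1013 remaining enhancers of that width had 44.7% and 43.5% at the edges and 15.0% at the lowest point inside. Coverage went on beyond the block: in the adjoining 1 kb it was 68.4% and 68.9%, against 31.3% and 30.7% beside the remaining enhancers. In the fifth kb out it was 15.7% and 24.6%, against 5.40% and 4.92%.

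**Figure D3:**
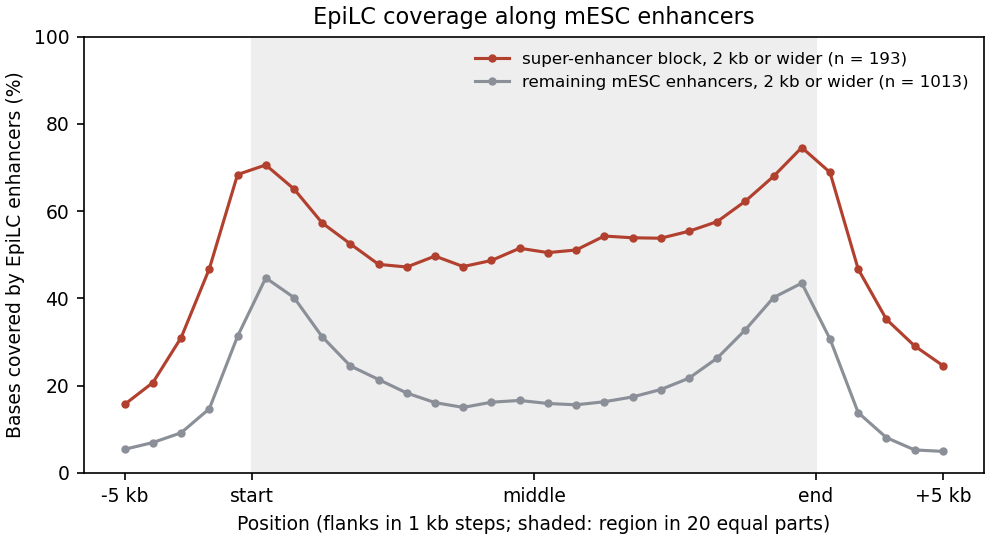
Share of bases covered by EpiLC enhancers (y axis, percent) along regions of 2 kb or more, divided into 20 equal parts (shaded), and over 5 kb on either side in 1 kb steps. The line of the super-enhancer block (193 regions) lies above that of the remaining mESC enhancers (1013 regions) throughout, and both are lower inside the region than at its edges.

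Genes of the naive pluripotency list were common neighbours of the block, and their regions differed widely in how much was covered. Each region was given the gene whose TSS in the authors' gene table lay nearest its centre, which yielded 213 distinct labels for the 231 regions. Of 25 naive genes, 14 (56.0%) were the nearest gene of at least 1 region, while of all 23745 gene symbols 212 (0.893%) were. For the remaining mESC enhancers the same shares were 64.0% (16 of 25) and 24.6% (5845 genes). This list and those below were chosen with earlier results of these data known, so their shares are a description and no independent support. The 15 regions beside naive genes were covered over 57.2% of their summed length, close to the 56.5% of the block. These 15 leave out regions whose nearest coding gene is Klf4 or Tbx3 but whose nearest TSS is that of a noncoding transcript. Those regions, described below, were covered over 4.62%, 3.58% and 0%, and including them would lower the 57.2%. A nearest gene marks position, and whether the region acts on it was not tested.

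At the high end, the region over Dppa5a, which encodes an RNA-binding protein of pluripotent cells, was covered in full over 16299 bp (chr9:78359337-78375635). So were 16188 bp over the start of Mybl2, a cell-cycle MYB factor (chr2:163051313-163067500), and a 1746 bp region beside Dppa3, which guards methylation in the early embryo. The region at Fgf4, the growth factor that drives naive cells towards differentiation, was covered over 92.4% of 13844 bp. Regions inside Esrrb, an orphan nuclear receptor, were covered over 70.5% of 13273 bp and 93.7% of 6807 bp, and the region inside Tet2, an enzyme of DNA demethylation, over 71.0% of 16217 bp. The 1788 bp region inside Manba, a lysosomal mannosidase gene, was covered over 97.2%. Values in between were found at Klf2, a Kruppel-like factor (64.1% of 5978 bp), and inside Tfcp2l1, a naive transcription factor (62.1% of 6702 bp). Without EpiLC enhancers centred within 1 kb of a TSS, coverage was 5.78% at Fgf4, 0% in Manba, and 57.8% and 19.0% in the Esrrb regions. The other regions of this paragraph kept their coverage.

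At the low end were other naive regulators. The 17753 bp region over the start of Nanog (chr6:122690101-122707853) was covered over 36.6%, all of it by 1 EpiLC enhancer at the end next to the gene, where the core shown above lies. The remaining 11251 bp upstream held none. Beside Prdm14, a regulator of naive and germ cells, 4 EpiLC enhancers covered 29.5% of 45150 bp. The region at Nr5a2, another nuclear receptor, was covered over 24.8% of 9327 bp, and over 0% without EpiLC enhancers centred within 1 kb of a TSS. The region beside Klf5 was covered over 10.8% of 16767 bp. The 1019 bp region beside Zfp42, a marker of naive cells also called Rex1, held no EpiLC enhancer.

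The naive regulators Klf4 and Tbx3 did not count as nearest genes, because starts of noncoding transcripts lay closer, and regions on their side were nearly empty of EpiLC enhancers. The region of 21822 bp whose nearest TSS is Gm12505 and whose nearest coding gene is Klf4, 64.5 kb away (chr4:55456388-55478209), was covered over 4.62%. The 41890 bp region at Tbx3os2, with Tbx3 as nearest coding gene at 20.3 kb, was covered over 3.58%, by 3 EpiLC enhancers of which none gave a covered stretch longer than 575 bp. Another region, of 7414 bp over AW549542, with Tbx3 at 87.3 kb, held none. These 3 regions were singled out after their values were seen.

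**Figure D4:**
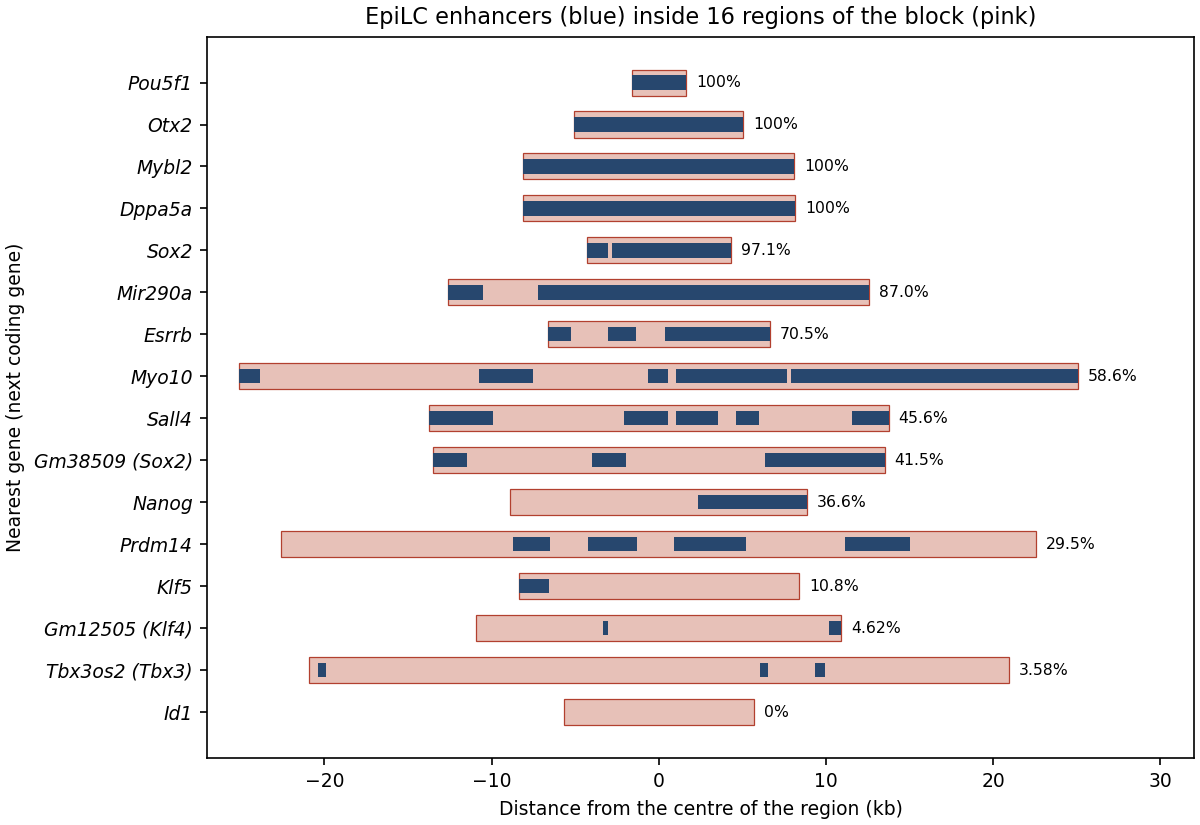
Map of 16 regions of the super-enhancer block (pink) centred on their middles, with the parts covered by EpiLC enhancers in blue and the percentage covered at the right; the x axis gives distance from the centre in kb. Coverage runs from 100% at Pou5f1, Otx2, Mybl2 and Dppa5a through 36.6% at Nanog to 3.58% at Tbx3os2 and 0% at Id1.

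Among general pluripotency genes, 4 of 15 (26.7%) were nearest to a region of the block, and 12 of 15 to a remaining enhancer. Of all symbols, 0.893% and 24.6% were, in the same order. The 3224 bp region upstream of Pou5f1 (chr17:35502267-35505490) was covered in full, and so was the 5114 bp region downstream of Utf1, a chromatin-associated factor. The 8607 bp region over Sox2 (chr3:34645983-34654589) was covered over 97.1%. A second, 27018 bp wide, lay 97.9 kb from the nearest Sox2 TSS of the reference annotation, and was covered over 41.5% in 3 pieces (chr3:34734766-34761783). The region at Sall4, a zinc-finger factor, held 5 EpiLC enhancers that covered 45.6% of 27482 bp. Of 21 formative and primed epiblast genes in the gene table, 3 were nearest to a region of the block, and 15 (71.4%) to a remaining enhancer. The region over the 3' part of Otx2, a homeobox factor of the epiblast, was covered in full over 10087 bp (chr14:48653439-48663525). Regions beside Lefty1 and Lefty2, antagonists of Nodal, were covered over 45.1% of 9786 bp and over all of 870 bp. Without EpiLC enhancers centred within 1 kb of a TSS, coverage was 0% at Pou5f1 and Utf1, 14.7% at Sox2, 31.6% at Sall4 and 31.3% at Lefty1. The other regions of this paragraph kept their coverage.

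Signalling genes were taken from lists for the LIF, FGF, Nodal and BMP, and Wnt pathways. In the remaining enhancers 50.0%, 61.1%, 42.1% and 61.1% of these lists were nearest genes, in the same order, against 24.6% of all symbols. Of 16 LIF and STAT3 genes, 3 were nearest to a region: Socs3, a feedback inhibitor of JAK kinases (80.2% of 4552 bp), Pim1, a kinase gene (100% of 1166 bp), and Gbx2, a homeobox target of LIF (59.3% of 6580 bp). Of 18 FGF and ERK genes, Fgf4 and the ERK inhibitors Spry2 and Spry4 had such a region. Both Spry2 regions were covered to a like extent (39.5% of 10434 bp and 41.9% of 7947 bp), and both Spry4 regions more (100% of 1135 bp and 88.8% of 8673 bp). Of 19 Nodal and BMP genes in the gene table, 4 had a region, among them Smad7, which encodes an inhibitory SMAD (97.6% of 1047 bp and 58.6% of 6945 bp). Without EpiLC enhancers centred within 1 kb of a TSS, coverage was 11.6% in the 7947 bp Spry2 region, 0% in the 1135 bp Spry4 region and 22.6% in the 6945 bp Smad7 region. Id1, a BMP target that restrains helix-loop-helix factors, had an 11399 bp region over its start with no EpiLC enhancer (chr2:152726542-152737940). None of 18 Wnt pathway genes was the nearest gene of a region, which at 0.893% of all symbols is no departure from genes at large.

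Each of 3 chromatin lists had only 1 or 2 genes nearest to a region of the block, a larger share than the 0.893% of all symbols. The remaining enhancers had 13 of 20 Polycomb, 3 of 10 DNA methylation and 9 of 20 acetylation and Mediator genes. These shares too were larger than the 24.6% of all symbols, so the excess was not particular to the block. Of 20 Polycomb genes in the gene table only Phc1, a subunit of Polycomb repressive complex 1, was nearest to a region, which was covered in full (2924 bp). Of 10 genes of DNA methylation, Tet1 and Tet2 had regions, and that in Tet1 was covered over 99.0% of 15169 bp. Of 20 genes for acetyltransferases, deacetylases, bromodomain proteins, Mediator and the cohesin loader, Kat6b (47.0% of 15301 bp) and Med13l (75.5% of 11752 bp and 12.6% of 8825 bp) had regions. The region of 25179 bp at Mir290a, the only one of 13 microRNA genes with a region and the first of a cluster abundant in mESCs, contained the longest covered stretch of the block, 19842 bp. The only one of 45 homeodomain genes was Gbx2, against 23 for the remaining enhancers, and of 10 germ cell genes Prdm14 and Dppa3 had regions, against 5. None of the 20 mesoderm and endoderm, 19 neural, 10 trophoblast, 20 ribosomal, 15 housekeeping, 12 fibroblast or 12 muscle and liver genes was nearest to a region of the block. The remaining enhancers had 5, 13, 4, 4, 0, 4 and 3 of these in the same order. Since the remaining set is many times larger, these counts show no depletion.

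Outside the lists, the widest region lay in an intron of Myo10, an unconventional myosin gene (chr15:25724348-25774510), and 5 EpiLC enhancers covered 58.6% of it. After the regions of Prdm14 and Tbx3os2 given above came those beside Klf9, a Kruppel-like factor gene (51.7% of 30198 bp), in Fbxo36 (50.9% of 29913 bp), in Dlc1, with Trmt9b as the nearest start in the gene table (82.4% of 29458 bp), in an intron of Pced1b, with Amigo2 as the nearest start (63.3% of 29028 bp), and over the start of Alpl, which encodes alkaline phosphatase (32.5% of 28330 bp). Covered in full at over 10 kb were 7 regions of the block and 0 of the remaining enhancers. The widest were a 17686 bp region between Mtcl1 and Rab12 and a 17145 bp region in an intron of Etl4, followed by those at Dppa5a and Mybl2 and one at Cbfa2t2, a corepressor gene (11723 bp).

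Only 8 regions of the block held no EpiLC enhancer. Besides those at Zfp42, Id1 and AW549542, a 12579 bp region lay over the start of Cobl, which encodes an actin nucleator (chr11:12457624-12470202). The others were narrow: 946 bp beside Inhbb, an activin and inhibin subunit gene, 571 bp beside Ier2, 1288 bp beside Ppp2r5c, a phosphatase subunit gene, and 553 bp in Kctd16. A second region beside Inhbb, of 1057 bp, was covered in full. Further regions with little coverage were those at Glod5 on the X chromosome (1.45% of 18938 bp), at Tnip1, an inhibitor of NF-kB signalling (3.92% of 18491 bp), and near 1700110C19Rik and Qk (3.69% of 21749 bp).

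**Figure D5:**
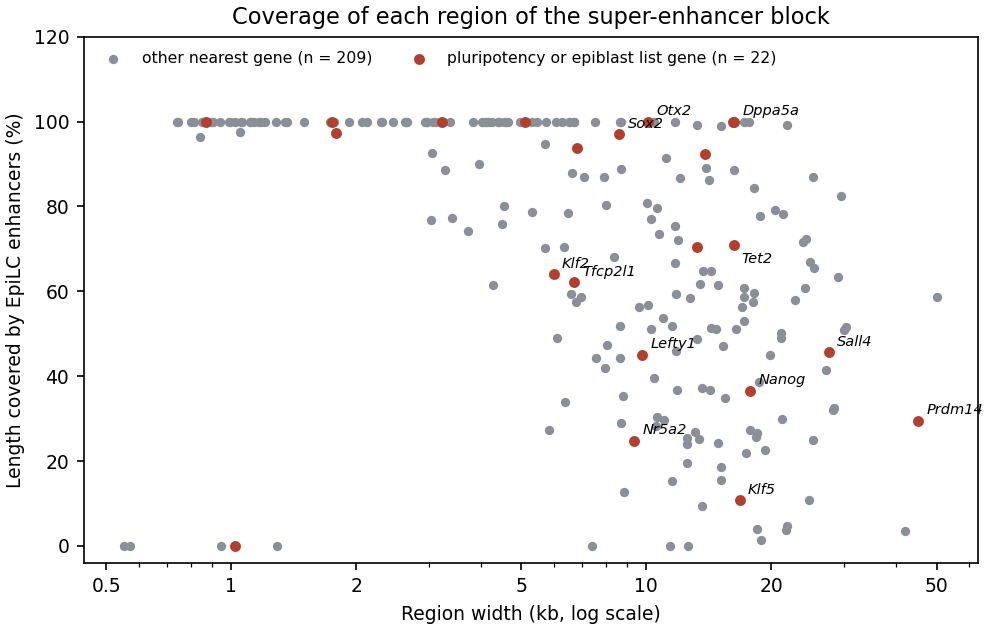
Length covered by EpiLC enhancers (y axis, percent) against width (x axis, kb, log scale) for each of the 231 regions; red points are the 22 regions whose nearest gene is in the naive, general or epiblast list. The red points spread over the whole range, from 0% to 100%, and full coverage occurs up to 17686 bp.

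In 15 cases a gene was the nearest to several regions of the block. Tgif1, a homeobox repressor of TGF-beta signalling, had 4, of which 3 were covered in full and the last over 44.3%. Ppp2r5c had 3, covered over 38.8% of their summed 20543 bp. Gaps between neighbouring regions were under 50 kb in 16 of 211 cases, the shortest being 14.3 kb at Gm34637, and the regions of Dppa3 and Nanog lay 25.9 kb apart. A remaining mESC enhancer lay within 50 kb of 137 of the 231 regions.

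The block lay closer to genes than the remaining enhancers. The median distance from centre to nearest TSS was 16.9 kb, against 33.9 kb in the remaining enhancers and 29.8 kb in the wide ones among these. A TSS of the gene table lay inside 51 regions of the block (22.1%), 2.43% of the remaining enhancers and 12.8% of the wide ones. Centres were within 1 kb of any annotated TSS in 14.7% (34 regions) against 8.76%, in introns in 35.1% against 45.7%, and between genes in 48.1% against 42.3%. The 49 regions of the block with no TSS within 50 kb all held an EpiLC enhancer and were covered over 55.9% of their summed length, and the 51 with a TSS inside over 51.7%. Their median coverage was 70.5% and 57.9%, and their median width 8370 and 13271 bp. Of the summed length of the corresponding remaining enhancers, 26.6% and 26.2% was covered. By chromosome, coverage ran from 16.5% on the X (2 regions) and 37.1% on chromosome 5 (11 regions) to 76.4% on chromosome 2 (13 regions), and chromosomes 1 and 11 held most regions (22 and 19).

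The sequence of the block was searched on both strands for 8 short motifs of factors active in these cells. The OCT-SOX core GCATNACAA occurred 71 times in 61 regions (26.4%), and 52 matches (73.2%) lay in EpiLC enhancers, which cover 56.5% of the length. Its density was thus 0.382 per 10 kb in covered and 0.181 per 10 kb in uncovered sequence. The nuclear receptor motif TCAAGGTCA, bound by ESRRB, had 0.792 and 0.525 per 10 kb, the ZIC motif CCTGCTG 3.76 and 2.85, and the octamer ATTTGCAT 0.822 and 0.611. The KLF motif GGGTGTGG (1.28 and 1.16), the STAT motif TTCCNGGAA (0.367 and 0.372) and the TCF/LEF motif ATCAAAG (1.53 and 1.61) had closer densities. The ETS motif CCGGAAGT, with only 24 matches in the block, had 0.110 and 0.0859. Of the TCAAGGTCA matches 60.1% were soft-masked as repeats in the reference, against 7.04% of the OCT-SOX cores.

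Cut into tiles of 500 bp, 1.40% of the block's 4709 tiles held the OCT-SOX core, against 2.01% of tiles in the wide remaining enhancers and 1.36% of all tiles of the chromosomes. Windows of 500 bp centred on the remaining enhancers had 7.31%, but they take only the centre of each enhancer and are not tiles of its whole length. In the block the core was in 1.78% of covered tiles and 0.893% of uncovered ones (17 tiles). In the wide remaining enhancers these shares were 2.69% and 1.84%, so the higher share in covered sequence was not particular to the block. There too, covered tiles had more of the octamer (5.16% and 3.63%), TCAAGGTCA (2.13% and 1.63%) and CCTGCTG (15.4% and 13.1%). They also had more of GGGTGTGG (5.38% and 4.50%), TTCCNGGAA (1.63% and 1.35%) and ATCAAAG (9.13% and 8.65%), but not of CCGGAAGT (0.344% and 0.360%). In the block, TTCCNGGAA (1.70% and 1.94%) and ATCAAAG (7.03% and 7.51%) were lower in covered tiles. Over all tiles, the shares for TCAAGGTCA were 3.16% in the block, 1.72% in the wide remaining enhancers and 1.06% in the chromosomes. They were 5.78%, 4.73% and 2.93% for GGGTGTGG, 14.7%, 13.6% and 9.57% for CCTGCTG, and 1.78%, 1.41% and 1.28% for TTCCNGGAA. The octamer had 3.42%, 3.98% and 4.36%, ATCAAAG 7.20%, 8.79% and 10.1%, and CCGGAAGT 0.488%, 0.345% and 0.307%. Base composition also differed between these sets, and its part in the motif shares was not tested. GC content was 47.0% in the block, 44.9% in the wide remaining enhancers and 41.7% in the chromosomes, and within the block 47.6% in covered and 46.2% in uncovered tiles. A match is a string of letters and no evidence of binding.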

How the data were processed

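The deposited tables hold mm10 coordinates of regions, with no value per library, so depth is unknown and no test over libraries was run. Per the series' design text, the authors took the enhancers from earlier publications and lifted them over to mm10. Tools listed, without roles, in the submitters' processing notes are Bowtie2 2.3.4.1, Trimmomatic 0.38 and bedtools 2.29.2. Starts were read as counting from 0 and are printed 1-based. Overlaps, covered length (the union of EpiLC enhancers), nearest TSSs and motif matches were computed in Python 3.11.15 with numpy 2.4.6 and pandas 2.3.3, after checking the functions on simulated regions and sequences. Of 24402 intervals in the gene table, 23811 received a name, through identical coordinates in RefSeq or GENCODE M21 or, failing that, through an overlap of 80% or more of the combined span. Duplicates (120), rows off the chromosomes (24) and intervals longer than the longest RefSeq gene (65) were left out. Annotation at centres and the nearest coding gene came from GENCODE M21. Tiles counted as covered when EpiLC enhancers covered at least 50% of them, and as uncovered at 0 bp. Genes named by rule are those of the widest regions, of the regions with most EpiLC enhancers, of those with most and least coverage, and of the 20 gene lists. The regions and lists were chosen with earlier results of these data known, and the alternatives are given in the closing section.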

Additional observations from a re-analysis of the deposited data

How the results depend on the processing

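The count of 223 regions of the block with an EpiLC enhancer stayed within 1.5 times under each alternative, at 157 where at least 50% of the EpiLC enhancer had to lie inside, 222 with 500 bp shared, 202 without promoter-centred EpiLC enhancers and 169 in the central 2 kb. The 190 of regions over 2 kb was chosen after seeing the data. The median share of length covered (77.0%) moved to 58.4% without promoter-centred EpiLC enhancers, to 11.8% with EpiLC enhancers trimmed to their central 1 kb (8.77% in the wide remaining enhancers), to 56.5% by summed length and to 67.0% in regions over 2 kb. The excess over the remaining enhancers was 55.1 percentage points of regions and 25.8 of length, and 26.7 and 33.9 against the wide ones. With at least 50% of the EpiLC enhancer inside, the shares of regions were 68.0% in the block and 62.4% in the wide remaining enhancers. The block kept its narrow regions in each comparison with the wide ones, so these are not matched for width. Distinct nearest genes (213) became 457 when every gene within 50 kb counted, regions at promoters (34) became 53 within 2 kb, and tiles with the OCT-SOX core (66) became 20 for GCATAACAA. The nearest gene was the same in 168 of 231 regions with coding genes of GENCODE, and naive genes numbered 14 to 16 in all settings run. No paired analysis was possible because the deposited tables hold no value per library; for the same reason the planned comparison of mutant with control signal, with its pseudocounts, filters and left-out replicates, was not run. Region starts are uncertain by 1 bp.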
